A study of Rattus norvegicus with 484 samples.

Results

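A pair of PPAR agonists given at the same labelled dose were set against each other in rat liver: Wy-14643, a PPARA agonist, and rosiglitazone, a PPARG agonist. The comparison used 29 of the 484 arrays of the series, chosen by tissue, compound and dose: 15 livers of rats given Wy-14643 at 100 mkd and 14 livers of rats given rosiglitazone at 100 mkd (the dose unit is written as in the labels). Both groups were sampled on days 2 to 6, with 3 rats per compound and day, except 2 for rosiglitazone on day 4, where rat 1376 was left out. All groups are labelled only as rat, and strain, sex and age are not given in the sources used here. Each array carried the Cy5-labelled RNA of 1 liver beside a Cy3-labelled pool of the livers of 14 to 16 vehicle rats of the same day, so a value is the log2 ratio of a rat to that pool. The pool is shared by both compounds within a day and drops out of their difference. The 18 Wy-14643 and 20 rosiglitazone soleus arrays at the same dose, most of them from the same animals, were used as a second tissue.

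The PPARs are nuclear receptors that bind DNA as partners of the retinoid X receptors and are switched on by fatty acids and by drugs. PPARA is the main form in hepatocytes, where it drives the genes of fatty acid import, of oxidation in mitochondria, peroxisomes and microsomes, and of ketone body synthesis; in rodents its agonists also enlarge the liver and multiply peroxisomes. PPARG is low in healthy liver and is best known as the regulator of fat cells, where it drives lipid uptake and storage genes, among them Fabp4, Cidea and Rbp7.

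Rat 1376, labelled as a rosiglitazone liver of day 4, had been set aside for muscle transcripts, and the marker lists bore this out only in part. Its 12 hepatocyte markers had a median log2 ratio to the pool of -3.73, against -0.27 to 0.20 on the other rosiglitazone arrays. Its 13 measured skeletal muscle markers had a median of 1.38, with 9 of them above every other rosiglitazone liver, but its fibroblast and stellate cell markers (2.18) and adipocyte markers (2.01) were higher still. Of the rosiglitazone arrays that were kept, rats 1373 and 1380 also stood apart. Rat 1373 (day 4) had 300 probe values at the table's limit, and rat 1380 (day 5) had a spread 2.78 times the median liver array. Counts are therefore also given without rats 1373 and 1380, and with rat 1376, where this moves a count of 2 or more by over 1.5 times. Labels of the rats run in separate number ranges for the compounds, and whether both were dosed and hybridised together is not given, so compound and any such batch cannot be told apart.

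The livers differed widely between the compounds. Of 18371 features tested (genes, and probes without a gene name), 5535 passed an adjusted p of 0.05 for Wy-14643 minus rosiglitazone (limma, averaged over the 5 days, Benjamini-Hochberg over all features), which is 30.1% of those tested. Wy-14643 was higher for 2701 (14.7%) and lower for 2834 (15.4%). Most differences were small: their median size was 0.26 log2 units, and 165 features reached 1 log2 unit, 114 higher and 51 lower. The sign was the same on all 5 days for 4274 of the 5535. In 142 features every Wy-14643 liver lay above every rosiglitazone liver, and in 47 every one lay below. With rat 1376 kept the count was 3185, and without rats 1373 and 1380 it was 6542, of which 5052 were among the 5535.

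The side of the pool on which each compound lay was described without a test, since the singly measured vehicle livers of the series were not part of this contrast. Wy-14643 was further from the pool for 4621 of the 5535 features (83.5%) and for 156 of the 165 that reached 1 log2 unit. The share over all tested features was not computed. Among those 165, rosiglitazone stayed within 0.5 log2 units of the pool for 129, moved at least 0.5 in the same direction as Wy-14643 for 16, and moved at least 0.5 in the opposite direction for 20.

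**Figure D1:**
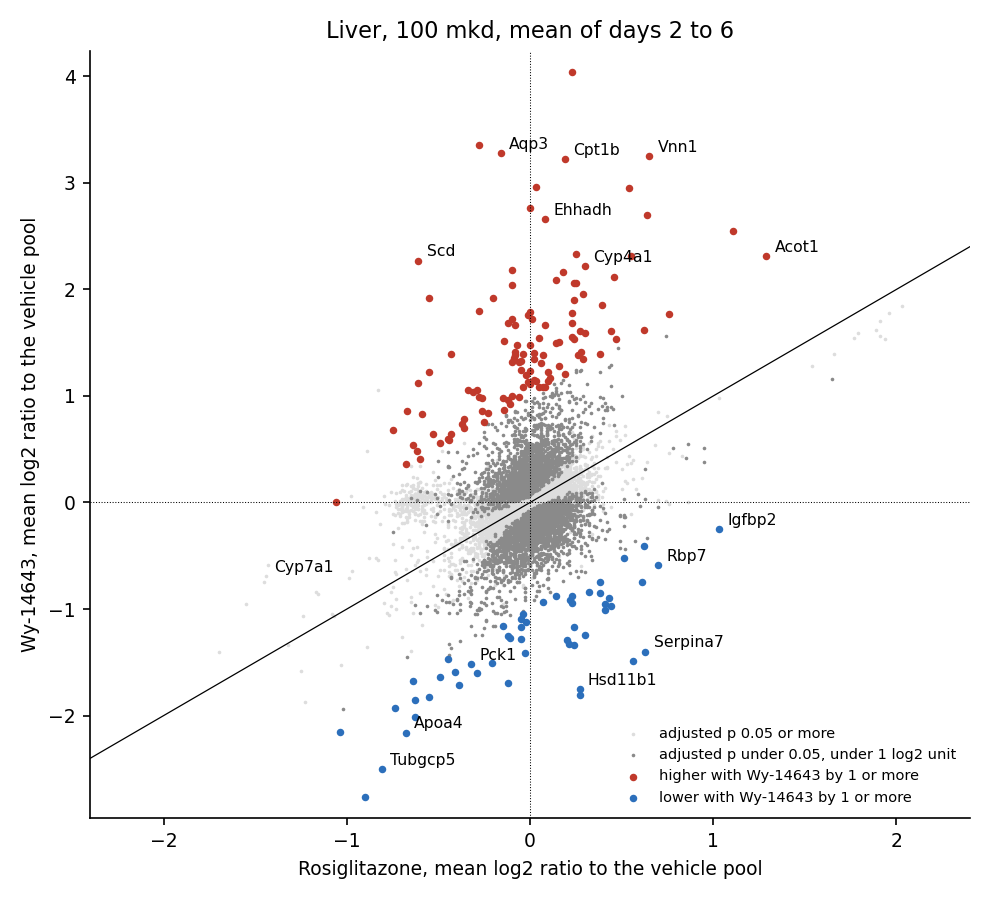
Mean log2 ratio to the vehicle pool over days 2 to 6 for each of 18371 features, Wy-14643 on the vertical axis and rosiglitazone on the horizontal axis, both linear in log2 units; the line marks equal values. The 114 red and 51 blue features differ by 1 log2 unit or more with adjusted p under 0.05, and most lie far from 0 on the vertical axis and near 0 on the horizontal one.

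Peroxisomal fatty acid oxidation was higher with Wy-14643. Of 19 tested genes of peroxisomal beta-oxidation, 14 rose relative to rosiglitazone, 0 fell and 5 did not pass, with a median difference of 0.50 against 0.004 over all features. Ehhadh, the bifunctional enzyme that hydrates and dehydrogenates the chain, ranged from 1.60 to 3.66 (median 2.73) in Wy-14643 livers, against -0.92 to 1.12 (median 0.16) in rosiglitazone livers. No Wy-14643 liver reached down to the rosiglitazone range, and the difference was 2.58 ± 0.11 (SE), adjusted p = 4.5e-13, or 5.99-fold. Acaa1b, a thiolase that cuts off the shortened chain, ranged from 1.35 to 2.56 (median 1.96) in Wy-14643 livers, against -0.66 to 0.93 (median 0.47) in rosiglitazone livers. These ranges did not overlap either, and the difference was 1.66 ± 0.08 (SE), adjusted p = 1.3e-12. Ech1, an enoyl-CoA isomerase, differed by 1.46 ± 0.07 (SE), and Acot8, which frees fatty acids from CoA inside the peroxisome, by 1.24 ± 0.06 (SE), both without overlap of the groups. Acaa1b has a near-identical relative, Acaa1a, and whether the probes of this array separate them is not given.

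Of 12 tested peroxisome assembly genes, 6 rose and 0 fell, with a median difference of 0.15. Pex11a, which elongates and divides peroxisomes, ranged from 1.61 to 2.44 (median 2.05) in Wy-14643 livers, against -0.58 to 0.75 (median 0.28) in rosiglitazone livers. Again the groups did not overlap, and the difference was 1.81 ± 0.08 (SE), adjusted p = 7.3e-13. The other members that passed were far smaller: Pex14 of the import machinery differed by 0.35, Pex3 by 0.28 and Pex19, which brings membrane proteins in, by 0.24. Pex19 was no longer called without day 2, without day 3 or without day 6. Without rats 1373 and 1380, 5 members rose and 1 fell.

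Mitochondrial beta-oxidation genes were likewise higher: 15 of 19 tested genes rose, 0 fell and 4 did not pass, with a median difference of 0.55. Cpt1b, the carnitine palmitoyltransferase of muscle that loads fatty acids for entry into mitochondria, ranged from 2.27 to 4.15 (median 3.27) in Wy-14643 livers, against -0.54 to 0.75 (median 0.29) in rosiglitazone livers. The lowest Wy-14643 liver was above the highest rosiglitazone liver, and the difference was 3.02 ± 0.11 (SE), adjusted p = 4.5e-14, or 8.12-fold. Cpt1a, the form usual in liver, did not pass: its difference was 0.14 ± 0.08 (SE), adjusted p = 0.2, with a 95% interval of -0.02 to 0.30. Cpt2, which takes the carnitine off on the inner side, ranged from 0.52 to 1.23 (median 1.07) in Wy-14643 livers, against -0.05 to 0.41 (median 0.22) in rosiglitazone livers. Its 4 probes all passed, and the difference was 0.83 ± 0.05 (SE), adjusted p = 3.1e-11. Hadha, a subunit of the trifunctional protein, differed by 0.77 ± 0.04 (SE), and Acadvl, the very long chain acyl-CoA dehydrogenase, by 0.54 ± 0.04 (SE).

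Pdk4, the kinase that shuts pyruvate dehydrogenase and spares glucose, ranged from 1.31 to 2.43 (median 1.67) in Wy-14643 livers, against -1.24 to 0.97 (median -0.09) in rosiglitazone livers. All 3 of its probes passed, the groups did not overlap and the difference was 1.83 ± 0.11 (SE), adjusted p = 3.2e-11. Of 7 tested ketone body genes, 3 rose and 2 fell (1 with rat 1376 kept). Acat1, a mitochondrial acetoacetyl-CoA thiolase, differed by 1.46 ± 0.10 (SE) and the ketone carrier Slc16a1 by 0.89 ± 0.08 (SE), while Slc16a7, a related carrier, fell by 0.44 on the log2 scale. Fgf21, the fasting hormone that PPARA controls in mouse liver, differed by 0.18 ± 0.18 (SE), adjusted p = 0.49, with a 95% interval of -0.20 to 0.55. The uncoupling proteins Ucp2 (0.35) and Ucp3 (0.68) both rose.

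Of 15 tested genes of microsomal omega-oxidation and acyl-CoA hydrolysis, 9 rose, 1 fell and 5 did not pass, with a median difference of 0.41. Cyp4a1, the fatty acid omega-hydroxylase and a classical marker of PPARA activation in rat liver, ranged from 1.70 to 3.06 (median 2.20) in Wy-14643 livers, against -0.58 to 0.75 (median 0.38) in rosiglitazone livers. The groups did not overlap, and the difference was 1.92 ± 0.13 (SE), adjusted p = 3.6e-10, or 3.78-fold. Cyp4a3, its relative, differed by 1.01 ± 0.09 (SE), while Cyp4f1 was the member that fell. With the thioesterase Acot1 both group medians lay well above the pool: it ranged from 1.18 to 4.39 (median 2.25) in Wy-14643 livers, against -0.57 to 2.57 (median 1.46) in rosiglitazone livers. Its groups overlapped over much of their range, and the difference of 1.03 ± 0.22 (SE), adjusted p = 0.0011, came from daily differences between 0.10 on day 4 and 1.83 on day 5 and was lost when arrays were scaled to one spread. Acot12 and Acot7, thioesterases of the cytosol, differed by 1.11 ± 0.09 (SE) and 0.82 ± 0.05 (SE) without overlap. The Cyp4a and Acot genes are families of close copies, and values of single members are uncertain to that extent. Vnn1, a pantetheinase that releases a building block of CoA, ranged from 2.44 to 3.84 (median 3.38) in Wy-14643 livers, against 0.09 to 1.14 (median 0.73) in rosiglitazone livers. Here every rosiglitazone liver was also above its pool, yet the Wy-14643 livers lay higher without overlap, by 2.59 ± 0.12 (SE), adjusted p = 7.3e-13.

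**Figure D2:**
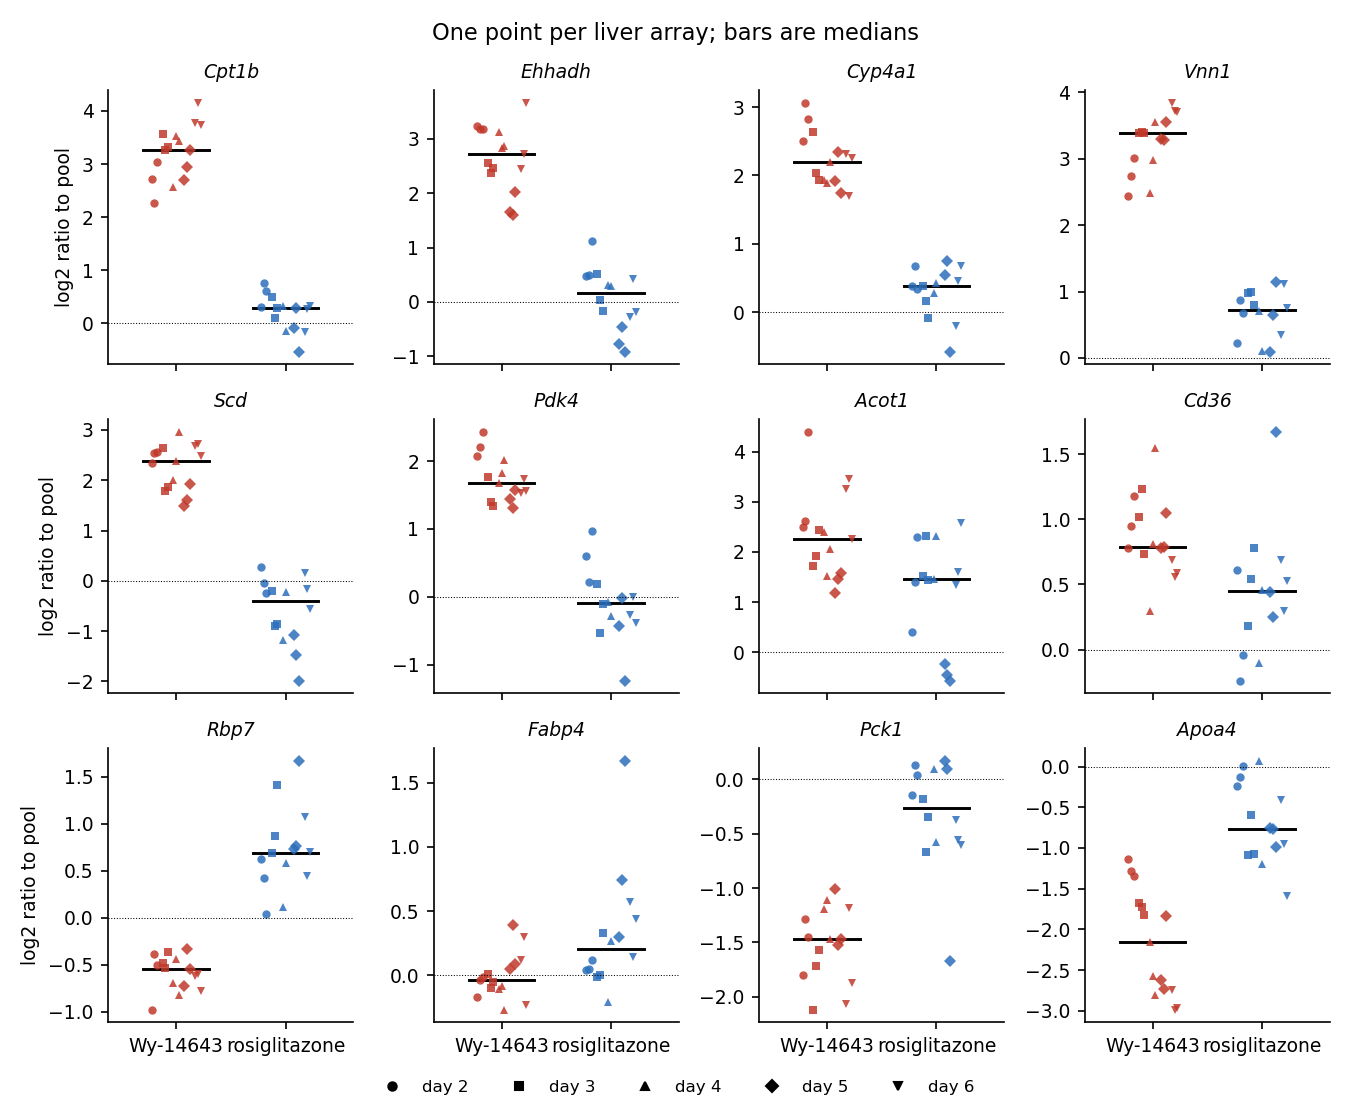
Log2 ratio to the vehicle pool for 12 genes, 1 point per liver, Wy-14643 (red, 15 livers) left of rosiglitazone (blue, 14 livers), with day given by the symbol and the median by a bar; each panel has its own linear axis. The groups are apart for Cpt1b, Ehhadh, Cyp4a1, Vnn1, Scd, Pdk4 and Rbp7 and overlap for Acot1, Cd36, Fabp4, Pck1 and Apoa4.

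PPARs bind direct repeats of a short site spaced by 1 base, so the window from 250 bases before to 50 after 1 transcript start per gene was searched in RefSeq promoters (build GRCr8) for AGGNCANAGGNCA on both strands. The exact motif was in 139 of 33469 promoters (0.42%) and in 0 of the 50 with a promoter among the 66 named genes that were higher by 1 log2 unit or more. With 1 mismatch allowed outside the N positions it was in 1554 promoters (4.6%), in 5 of those 50 (10.0%), and in 0 of 27 for genes lower by 1 or more. Over all called genes it was in 49 of 1398 for those higher (3.5%) and 51 of 1353 for those lower (3.8%), beside 310 of 8285 tested genes (3.7%), and among the 12 largest rises it was in 0 of the 7 with a promoter. The promoters of Acot8, Acot12 and Acat1, all of them among the 5, are shown with the match in capitals, read 5′ to 3′ along the gene. That of Acot8 is chr3:173962139-173962438 on the minus strand, that of Acot12 is chr2:24721709-24722008 on the plus strand, and that of Acat1 is chr8:62904993-62905292 on the minus strand.
Acot8: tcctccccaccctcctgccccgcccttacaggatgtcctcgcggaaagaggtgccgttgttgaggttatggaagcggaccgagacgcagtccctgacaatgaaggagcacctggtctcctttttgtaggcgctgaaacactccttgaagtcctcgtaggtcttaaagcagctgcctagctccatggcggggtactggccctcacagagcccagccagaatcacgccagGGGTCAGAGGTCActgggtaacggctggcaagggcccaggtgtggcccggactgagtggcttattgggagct
Acot12: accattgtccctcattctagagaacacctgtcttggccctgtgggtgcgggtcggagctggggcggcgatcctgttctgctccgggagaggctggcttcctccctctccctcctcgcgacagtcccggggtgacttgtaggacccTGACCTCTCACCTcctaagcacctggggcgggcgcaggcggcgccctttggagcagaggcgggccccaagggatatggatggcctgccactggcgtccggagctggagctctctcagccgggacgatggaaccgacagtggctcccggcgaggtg
Acat1: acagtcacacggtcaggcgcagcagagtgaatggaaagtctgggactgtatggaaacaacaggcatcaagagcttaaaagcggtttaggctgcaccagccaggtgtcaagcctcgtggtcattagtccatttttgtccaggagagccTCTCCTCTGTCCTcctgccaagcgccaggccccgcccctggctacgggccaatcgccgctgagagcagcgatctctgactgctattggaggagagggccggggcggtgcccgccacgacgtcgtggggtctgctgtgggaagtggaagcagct
The Acot8 match starts 22 bases before the transcript start that the promoter table uses, on the strand of the gene, and those of Acot12 and Acat1 start 105 and 103 bases before theirs and read on the opposite strand. For Acot12 and Acat1 that transcript start lies inside the annotated span of the gene, and the Acot12 window lies wholly within it. A match to letters is a description of the window and not evidence of binding.

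Genes of fatty acid uptake, binding and lipid droplets split by member. Of 22 tested, 15 rose, 3 fell and 4 did not pass, with a median difference of 0.46. Fabp3, the fatty acid binding protein of heart and muscle, ranged from 0.58 to 3.83 (median 2.73) in Wy-14643 livers, against -0.21 to 0.29 (median -0.05) in rosiglitazone livers. Every rosiglitazone liver stayed near its pool, and the difference was 2.77 ± 0.22 (SE), adjusted p = 4.5e-09, or 6.81-fold. Fabp7, the binding protein of brain, differed by 1.32 ± 0.12 (SE). Plin2, which coats lipid droplets, differed by 1.14 ± 0.15 (SE) and the lipases Lipe and Pnpla2, which empty them, by 0.81 ± 0.05 (SE) and 0.82 ± 0.13 (SE). Cd36, a fatty acid transporter under both receptors, was above the pool with either compound: it ranged from 0.30 to 1.55 (median 0.79) in Wy-14643 livers, against -0.24 to 1.67 (median 0.45) in rosiglitazone livers. Its groups overlapped, and the difference of 0.45 ± 0.14 (SE), adjusted p = 0.019, was no longer called without rat 1373, without day 2 or without day 3. The Cd36 differences on days 2 to 6 were 0.86, 0.49, 0.71, 0.09 and 0.11. Fabp2, the intestinal binding protein, was the exception among the binding proteins with Fabp4: it averaged -1.51 with Wy-14643 and -0.21 with rosiglitazone, a difference of -1.29 ± 0.18 (SE), adjusted p = 1.1e-05.

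The genes usually linked to PPARG in fat did not share a direction. Of 16 tested, 5 rose, 5 fell and 6 did not pass, a median difference of -0.03, so 5 were higher with the PPARA agonist. Rbp7, a retinoid binding protein of adipose tissue, was higher with rosiglitazone: it ranged from -0.98 to -0.33 (median -0.54) in Wy-14643 livers, against 0.04 to 1.67 (median 0.70) in rosiglitazone livers. All Wy-14643 livers were below their pool and all rosiglitazone livers above it, with a difference of -1.29 ± 0.11 (SE), adjusted p = 9.8e-09. Fabp4, the fatty acid binding protein of adipocytes, ranged from -0.27 to 0.39 (median -0.04) in Wy-14643 livers, against -0.21 to 1.67 (median 0.20) in rosiglitazone livers. The groups overlapped, and rat 1380 gave the highest rosiglitazone value. The difference of -0.30 ± 0.10 (SE), adjusted p = 0.026, passed on 2 of 4 probes when they were tested alone. The Fabp4 call was lost without rat 1374, without day 2, without day 6 or with quality weights. Lpl, lipoprotein lipase, was above the pool in every rosiglitazone liver: it ranged from -0.98 to 1.10 (median 0.09) in Wy-14643 livers, against 0.14 to 1.12 (median 0.60) in rosiglitazone livers, a difference of -0.62 ± 0.16 (SE), adjusted p = 0.0055, which quality weights took away. Cidea, a lipid droplet protein that PPARG drives in adipocytes, was in contrast higher with Wy-14643: it ranged from 0.52 to 1.50 (median 0.90) in Wy-14643 livers, against -0.52 to 0.38 (median 0.13) in rosiglitazone livers. It did not overlap, with a difference of 0.89 ± 0.09 (SE), adjusted p = 1e-07. The glycerol channel Aqp7 rose by 0.36 and Angptl4, an inhibitor of lipoprotein lipase that both receptors induce, by 0.68. With rat 1376 kept, 2 members rose and 4 fell.

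Adipocyte markers gave no common shift beside these: of 9 tested, 3 rose and 3 fell, and the median per array lay between -0.08 and 0.31 in Wy-14643 livers and between -0.05 and 0.26 in rosiglitazone livers. In bulk RNA, a change in the number of cells of a type and a change in RNA per cell cannot be told apart.

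Lipogenic genes were higher with Wy-14643: 12 of 22 tested rose, 1 fell and 9 did not pass, with a median difference of 0.34. Scd, the stearoyl-CoA desaturase that makes monounsaturated fatty acids, ranged from 1.48 to 2.96 (median 2.38) in Wy-14643 livers, against -1.99 to 0.28 (median -0.40) in rosiglitazone livers. Every Wy-14643 liver lay above its pool and the rosiglitazone median lay below it, without overlap, and the difference was 2.88 ± 0.13 (SE), adjusted p = 8.6e-13, or 7.35-fold. Me1, malic enzyme, which supplies NADPH, ranged from 0.62 to 2.99 (median 1.91) in Wy-14643 livers, against -0.42 to 0.94 (median 0.26) in rosiglitazone livers. The groups overlapped slightly, and the difference was 1.66 ± 0.18 (SE), adjusted p = 4.7e-07. Srebf1, the transcription factor of fatty acid synthesis, differed by 0.85 ± 0.06 (SE), and Fads2, a desaturase of polyunsaturated fatty acids, by 1.27 ± 0.13 (SE), both without overlap. Fasn and Acly, which build palmitate and its precursor, were among the members that did not pass: their differences were 0.51 (95% interval 0.07 to 0.95) and -0.09 (95% interval -0.30 to 0.13).

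Other large rises had no list. Ppp1r1a, an inhibitor of protein phosphatase 1, ranged from 1.04 to 5.05 (median 3.39) in Wy-14643 livers, against -1.97 to 1.20 (median -0.32) in rosiglitazone livers. The groups touched at their edges, and the difference was 3.64 ± 0.24 (SE), adjusted p = 2.5e-10, or 12.4-fold. Aqp3, a water and glycerol channel, ranged from 1.37 to 4.75 (median 3.28) in Wy-14643 livers, against -1.20 to 1.41 (median -0.29) in rosiglitazone livers. The lowest Wy-14643 liver was just under the highest rosiglitazone liver, and the difference was 3.44 ± 0.36 (SE), adjusted p = 2.1e-07. Hdc, which makes histamine from histidine, ranged from 2.28 to 3.48 (median 3.06) in Wy-14643 livers, against -1.21 to 1.39 (median -0.18) in rosiglitazone livers. It did not overlap, with a difference of 2.93 ± 0.17 (SE), adjusted p = 3.7e-11. Aig1, a hydrolase of branched fatty acid esters of hydroxy fatty acids, differed by 2.06 ± 0.07 (SE), and Tmem82, a membrane protein, by 1.98 ± 0.14 (SE). Fbp2, the muscle form of fructose bisphosphatase, differed by 2.47 ± 0.40 (SE), but its lowest rosiglitazone value of -6.64 was at the table's limit in rat 1373; without values at the limit it differed by 1.81, adjusted p = 7.7e-09.

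The largest falls included a plasma hormone carrier and enzymes of steroid and retinoid turnover. Serpina7, thyroxine-binding globulin, ranged from -3.40 to -0.05 (median -1.52) in Wy-14643 livers, against -0.90 to 2.24 (median 0.65) in rosiglitazone livers. The groups overlapped, and the difference was -2.03 ± 0.29 (SE), adjusted p = 1.8e-05. Hsd11b1, which regenerates active glucocorticoid, ranged from -2.94 to -0.62 (median -1.85) in Wy-14643 livers, against -1.60 to 1.77 (median 0.15) in rosiglitazone livers, a difference of -2.02 ± 0.26 (SE), adjusted p = 5.3e-06. Cyp26a1, which degrades retinoic acid, ranged from -1.91 to -0.04 (median -1.35) in Wy-14643 livers, against -1.0 to 1.33 (median 0.49) in rosiglitazone livers, a difference of -1.53 ± 0.16 (SE), adjusted p = 2.8e-07. In these 3 genes every Wy-14643 liver was below the pool and the rosiglitazone medians were above it.

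A few falls came with no overlap between the groups. Acmsd, which steers tryptophan breakdown away from NAD synthesis, ranged from -1.20 to -0.30 (median -0.72) in Wy-14643 livers, against 0.08 to 0.95 (median 0.79) in rosiglitazone livers. Every Wy-14643 liver was below its pool and every rosiglitazone liver above, a difference of -1.36 ± 0.09 (SE), adjusted p = 2.6e-10. Clic5, an intracellular chloride channel protein, ranged from -1.44 to -0.47 (median -1.05) in Wy-14643 livers, against -0.04 to 1.02 (median 0.44) in rosiglitazone livers, a difference of -1.43 ± 0.10 (SE), adjusted p = 3e-10. The remaining large falls overlapped: Tubgcp5 of the gamma-tubulin complex (-1.69), Popdc2 (-1.57), the activin subunit Inhba (-1.54), the glucuronosyltransferase Ugt2a3 (-1.49), Loxl4 of the lysyl oxidases (-1.38) and the protease inhibitor A2m (-1.38).

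Among genes of secreted proteins that passed, most were lower with Wy-14643. Of 11 tested genes of apolipoproteins and lipoprotein handling, 5 fell and 1 rose, with a median difference of -0.19. Apoa4 was below the pool with either compound: it ranged from -2.99 to -1.14 (median -2.15) in Wy-14643 livers, against -1.59 to 0.07 (median -0.77) in rosiglitazone livers. The groups overlapped in part, and the difference was -1.48 ± 0.13 (SE), adjusted p = 1.9e-08. Apoc3, which slows triglyceride clearance, averaged -0.79 with Wy-14643 and -0.33 with rosiglitazone (-0.46 apart), and Apoa1, the main protein of HDL, -0.45 with Wy-14643 and -0.07 with rosiglitazone (-0.38 apart). The Apoa1 call was lost without rats 1373 and 1380 (adjusted p = 0.054) and with quality weights. The Apoa1 call was likewise lost without day 2 and without day 4. Of 25 tested plasma protein genes, 12 fell and 0 rose, with a median of -0.17. They include Igfbp2, a binding protein of insulin-like growth factors (-1.28), which averaged -0.25 with Wy-14643 and 1.03 with rosiglitazone, the thyroxine carrier Ttr (-0.58) and coagulation factor F5 (-0.59). Keeping rat 1376 left 3 plasma protein genes and 1 lipoprotein gene with a fall. Hepatocyte markers themselves had 1 rise and 3 falls among 8 tested (1 fall with rat 1376 kept), and Alb, albumin, differed by 0.00 ± 0.13 (SE), adjusted p = 0.99.

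Glucose and amino acid genes had falls and rises, beside 14.7% rising and 15.4% falling over all features. Their rises were near that share and were not read as a shift. Of 20 tested genes of glucose metabolism and pyruvate oxidation, 7 fell, 4 rose and 9 did not pass, with a median difference of 0.00. Pck1, the first committed step of gluconeogenesis and a PPARG target in fat, ranged from -2.12 to -1.01 (median -1.47) in Wy-14643 livers, against -1.67 to 0.17 (median -0.26) in rosiglitazone livers. Rat 1380 supplied the lowest rosiglitazone value, the groups otherwise lay apart, and the difference was -1.20 ± 0.15 (SE), adjusted p = 3.9e-06. Slc2a2, the hepatocyte glucose transporter, fell by 0.92 on the log2 scale with all 6 probes passing, and Pklr, liver pyruvate kinase, by 0.89. Of 25 tested genes of amino acid breakdown and the urea cycle, 8 fell and 3 rose; the urea cycle enzymes Ass1 (-0.84) and Asl (-0.60) fell, and Bckdha of branched-chain amino acid oxidation (0.38) rose. Without rats 1373 and 1380, 2 of the glucose genes rose and 7 fell. Including rat 1376, 3 glucose genes fell and 2 rose, and 0 amino acid genes fell.

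Of 54 tested genes of xenobiotic metabolism, 21 fell, 10 rose and 23 did not pass, with a median difference of -0.11. Cyp1a2, which oxidises caffeine and aromatic amines, averaged -1.28 with Wy-14643 and -0.05 with rosiglitazone, a difference of -1.23 ± 0.12 (SE), adjusted p = 1.3e-07, with 3 of 3 probes passing. Cyp2b3 fell by 0.67 on the log2 scale with no overlap, and Cyp2c22 (1.34) and the retinal dehydrogenase Aldh1a1 (0.83, 6 of 6 probes) rose. When rat 1376 was included, 4 fell and 9 rose.

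Bile acid and sterol genes had more falls than rises. In bile acid synthesis and transport 6 of 18 fell and 1 rose, among them the hepatocyte importers Slc10a1 (-0.46) and Slco1b2 (-0.68). Cyp7a1, the rate-limiting enzyme of bile acid synthesis, ranged from -1.93 to 1.21 (median -0.95) in Wy-14643 livers, against -3.24 to 0.94 (median -1.49) in rosiglitazone livers. Its spread was wide in both groups, and the difference of 0.75 ± 0.37 (SE), adjusted p = 0.14, has a 95% interval of -0.03 to 1.52; it passed without rat 1380 and with arrays scaled to one spread. Of 19 cholesterol synthesis genes, 6 fell and 0 rose, with a median of -0.18, although single livers of either compound ranged widely: the per-array median of the list lay between -0.82 and 0.72 in Wy-14643 livers and between -0.55 and 0.68 in rosiglitazone livers. Insig2, which holds back sterol activation, was the largest of the named falls there (-0.93 ± 0.14 (SE)). Inclusion of rat 1376 left 1 fall in each list.

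**Figure D3:**
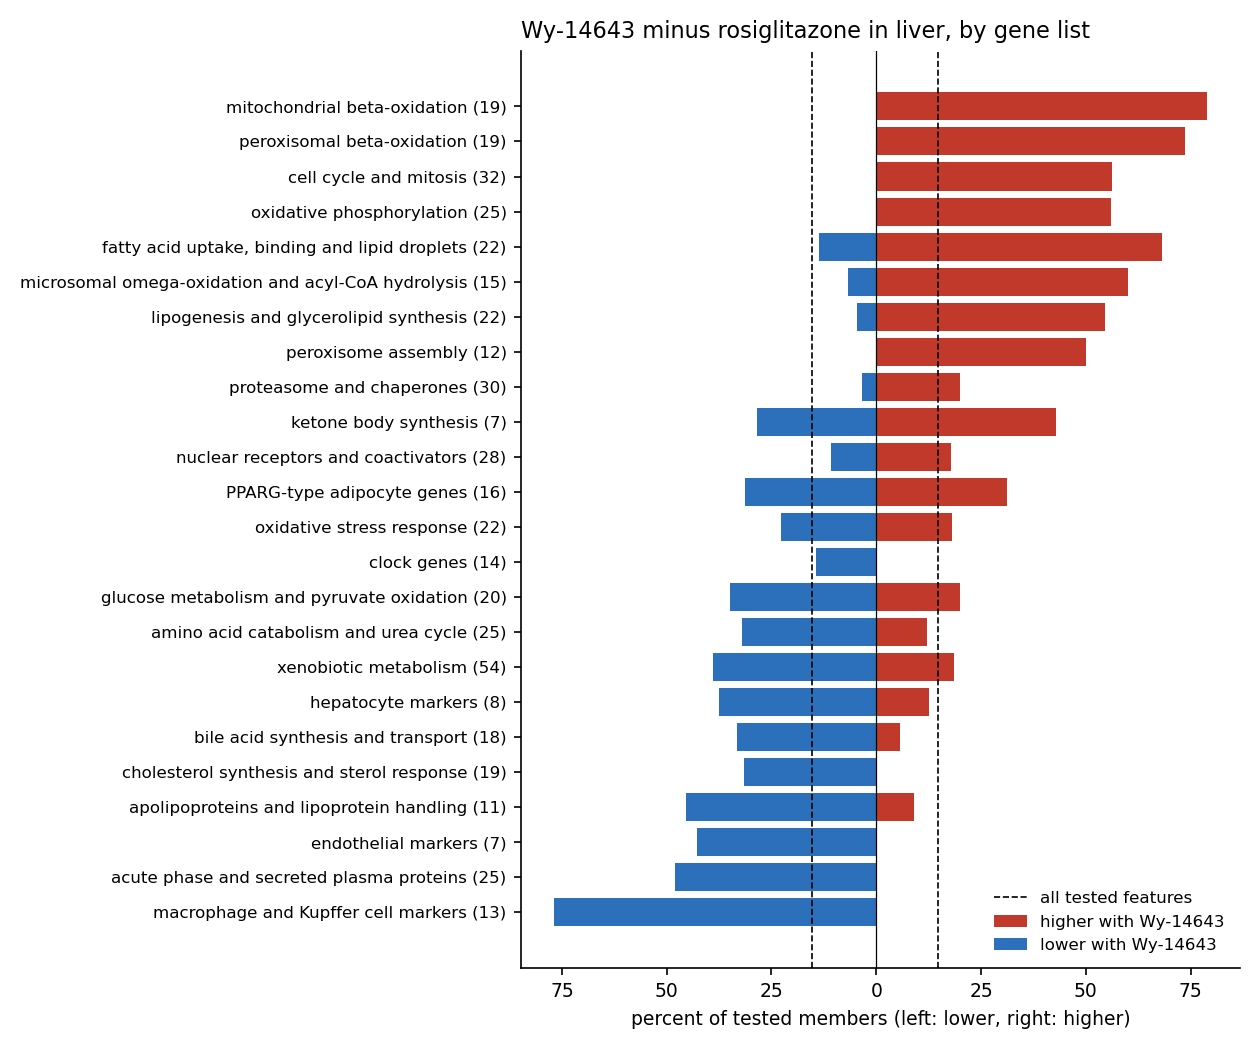
Percent of the tested members of each gene list (number tested in brackets) that were higher (right, red) or lower (left, blue) with Wy-14643 than with rosiglitazone at adjusted p under 0.05; dashed lines give the same for all 18371 features (14.7% higher, 15.4% lower). Lists of fatty acid oxidation lie far to the right, and plasma proteins and macrophage markers far to the left.

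Cell cycle genes rose with Wy-14643: 18 of 32 tested were higher, 0 lower, with a median difference of 0.32. Cdc20, an activator of the anaphase-promoting complex, ranged from 0.24 to 1.66 (median 0.85) in Wy-14643 livers, against -0.61 to 0.53 (median -0.06) in rosiglitazone livers, a difference of 0.88 ± 0.10 (SE), adjusted p = 4.8e-07. Aurkb, a mitotic kinase, differed by 0.76 ± 0.12 (SE) and Tyms, thymidylate synthase, by 0.46 ± 0.07 (SE). Top2a and Mki67, which mark cycling cells, rose by 0.29 and 0.41. Of 25 tested subunits of oxidative phosphorylation 14 rose and 0 fell, by little (median 0.15): Cox5b and Cox4i1 of complex IV differed by 0.25 and 0.21. Both differed most on day 6 (0.64 and 0.59) and were no longer called without day 6. With rat 1376 kept, 0 of the 25 subunits passed. Proteasome and chaperone genes had 6 rises and 1 fall among 30, beside 14.7% rising and 15.4% falling over all features. They had 15 rises without rats 1373 and 1380. Hspb1, a small heat shock protein, stood out among them: it ranged from 0.30 to 2.47 (median 1.01) in Wy-14643 livers, against -1.15 to 0.18 (median -0.50) in rosiglitazone livers, without overlap and with a difference of 1.73 ± 0.15 (SE), adjusted p = 1.1e-08.

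The receptors' own transcripts did not pass with all 29 livers. Ppara differed by -0.12 ± 0.12 (SE) (95% interval -0.38 to 0.13), Pparg by -0.08 ± 0.10 (SE) (-0.29 to 0.13), Ppard by 0.12 ± 0.07 (SE) (-0.02 to 0.26) and Rxra, their partner, by 0.00 ± 0.04 (SE) (-0.08 to 0.09). The coactivator Ppargc1a differed by -0.12 ± 0.05 (SE) (-0.21 to -0.02) and did not pass either. Ppard passed with quality weights and without rat 1374, which left rat 1373 as the only rosiglitazone liver of day 4. Rat 1373 gave the lowest rosiglitazone value of Ppard, -1.11. The Ppard difference was 0.55 on day 4 and between -0.09 and 0.08 on the other days. Ppargc1a passed without day 3 and when any one of rats 1365, 1370, 1374 and 1384 was left out. Among 28 tested nuclear receptors and coactivators 5 rose, with Nr1i3, the constitutive androstane receptor, at 0.64 ± 0.07 (SE) on 4 of 4 probes, and 3 fell, with Nr3c1, the glucocorticoid receptor, at -0.35 ± 0.07 (SE). Of 22 oxidative stress genes 4 rose and 5 fell: Gpx4, which reduces lipid peroxides, rose by 0.44 and Hmox1, haem oxygenase, fell by 0.40 on the log2 scale. Of 14 clock genes 2 fell and 0 rose. Over all features 14.7% rose and 15.4% fell, so the counts of these lists were not read as a shift. With rat 1376 kept the falls were 1 nuclear receptor, 2 oxidative stress and 1 clock gene, and without rats 1373 and 1380 the nuclear receptor falls were 5. Bmal1, a core activator of the clock, ranged from -1.85 to 2.38 (median -0.20) in Wy-14643 livers, against -1.41 to 2.69 (median 0.33) in rosiglitazone livers, a spread within each compound larger than the difference of -0.66 ± 0.42 (SE).

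Macrophage and Kupffer cell markers were lower with Wy-14643. Of 13 tested, 10 fell and 0 rose, with a median difference of -0.34, and the median per array lay between -0.72 and -0.10 in Wy-14643 livers, against -0.45 to 0.39 in rosiglitazone livers. Fcgr3a, an immunoglobulin receptor, ranged from -1.18 to 0.05 (median -0.56) in Wy-14643 livers, against -0.50 to 2.02 (median -0.03) in rosiglitazone livers, a difference of -0.76 ± 0.12 (SE), adjusted p = 5.2e-05. Lyz2, lysozyme, differed by -0.58 ± 0.12 (SE), and Vsig4, a complement receptor of Kupffer cells, by -0.51 ± 0.10 (SE). Clec4f, a lectin of Kupffer cells, differed by -0.33 ± 0.10 (SE). Rat 1380 gave the highest rosiglitazone values, but 10 of 13 also fell without rats 1373 and 1380. Keeping rat 1376, 5 fell. Of the other cell types, 3 of 7 endothelial, 1 of 9 lymphocyte, 1 of 12 stellate cell and fibroblast and 1 of 7 blood markers fell and 0 rose. Cholangiocyte markers had 1 rise (Epcam, 0.47) and 0 falls among 8. Skeletal muscle markers had 2 rises and 1 fall among 13, and exocrine pancreas markers 2 rises and 1 fall among 9, none above 0.81 in size. With 14.7% rising and 15.4% falling over all features, counts of 1 or 2 in these short lists were not read as a shift. Keeping rat 1376 left 1 endothelial fall, 0 muscle rises and 1 pancreas rise. The part of cell numbers in the other differences was not tested.

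Whether the difference drifted over the 5 days was asked with a slope per day. It passed for 3 of 18371 features (0.0163%), while 1834 had an unadjusted p under 0.05. Scd2, a second stearoyl-CoA desaturase, had differences of 0.17, -0.41, 0.52, 1.11 and 2.45 on days 2 to 6, a change of 0.61 ± 0.09 (SE) per day, adjusted p = 0.0047. Hhatl, a relative of the hedgehog acyltransferase, had 0.88, 1.23, 1.38, 2.03 and 1.94, a change of 0.29 ± 0.04 per day. Pdia3, a disulfide isomerase of the endoplasmic reticulum, had 0.39, 0.29, 0.05, -0.30 and -0.80, a change of -0.30 ± 0.04 per day, so its sign turned within the series. Cpt1b, at 2.11, 3.09, 3.08, 3.08 and 3.74, had a slope of 0.32 ± 0.08 that did not pass (adjusted p = 0.14), and Ehhadh, at 2.5, 2.34, 2.64, 2.48 and 2.95, was already as far apart on day 2 as later. The number of slopes called depended on the setting: it was 340 with quality weights, 20 with arrays scaled to one spread, 64 without rats 1373 and 1380 and 1 with rat 1376. Leaving out single arrays gave 27 without rat 1380, 14 without rat 1205, 9 without rat 1377, 7 without rat 1201, 6 without rat 1367, and 5 without any one of rats 1198, 1202, 1216, 1369, 1371, 1373 and 1374.

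**Figure D4:**
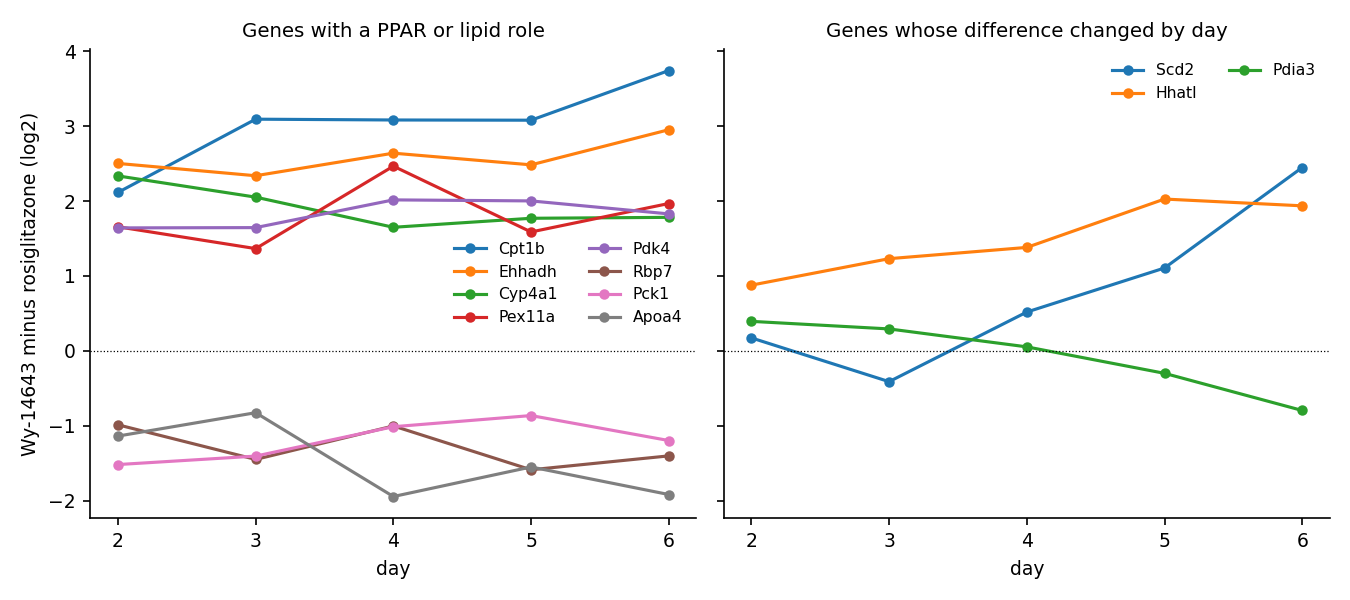
Wy-14643 minus rosiglitazone in liver (log2, linear axis) on each of days 2 to 6, each point a difference of the means of 3 and 3 rats (3 and 2 on day 4), for 8 genes of fatty acid, retinoid, glucose and lipoprotein metabolism on the left and the 3 genes whose slope passed on the right. The left-hand genes keep their sign on every day, while Scd2 ends at 2.45 and Pdia3 at -0.80.

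The same contrast in soleus, a slow-twitch leg muscle, gave the test of whether these differences hold across tissues. Of 18253 features tested, the difference between the compounds was not the same in liver and soleus for 3423 (18.8%), 1720 higher (9.42%) and 1703 lower (9.33%) in liver. With the rat as a block it was 2831, of which 2624 were among the 3423. Genes with too few soleus values were not tested here, among them Ppp1r1a, Cpt1b, Fabp3, Hspb1 and Clic5, which differed widely in liver. Cyp4a1 differed by 1.92 in liver and 0.07 in soleus (1.84 ± 0.17 (SE), adjusted p = 9.3e-12), and Pex11a by 1.81 in liver and 0.12 in soleus (1.69 ± 0.16 (SE), adjusted p = 6.6e-12). Vnn1 was apart by 2.59 in liver and 0.01 in soleus, Hdc by 2.93 in liver and 0.09 in soleus and Ehhadh by 2.58 in liver and 0.41 in soleus, each larger in liver with adjusted p of 2e-21, 7.4e-19 and 5.5e-11. Acot1 differed by 1.03 in liver and 1.23 in soleus, and its tissue difference did not pass (95% interval -0.79 to 0.39). Intensities were not used, so a small soleus difference may come from a transcript too low to measure there, which was not tested.

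Several genes linked to PPARG or lipid storage were lower with Wy-14643 in soleus. Rbp7 differed by -1.29 in liver and -3.71 in soleus and Fabp4 by -0.30 in liver and -1.37 in soleus, so rosiglitazone exceeded Wy-14643 by more in soleus (2.42 ± 0.14 (SE), adjusted p = 8.4e-20 for Rbp7 and 1.07 ± 0.12 (SE), adjusted p = 9.9e-10 for Fabp4). Scd turned its sign, with 2.88 in liver and -1.54 in soleus, a gap of 4.42 ± 0.31 (SE), adjusted p = 2.4e-16. Plin2 (1.14 in liver and -0.47 in soleus), Angptl4 (0.68 in liver and -0.41 in soleus) and Cd36 (0.45 in liver and -0.40 in soleus) were likewise higher with Wy-14643 in liver and lower with it in soleus. Prom1, a membrane glycoprotein of progenitor cells, ran opposite, at -1.04 in liver and 0.77 in soleus. Pparg (-0.08 in liver and -0.45 in soleus), Lpl (-0.62 in liver and -0.10 in soleus), Apoa1 (-0.38 in liver and 0.05 in soleus) and Aqp7 (0.36 in liver and 0.07 in soleus) passed for the tissue difference but not with the rat as a block (adjusted p = 0.21, 0.19, 0.12 and 0.054).

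**Figure D5:**
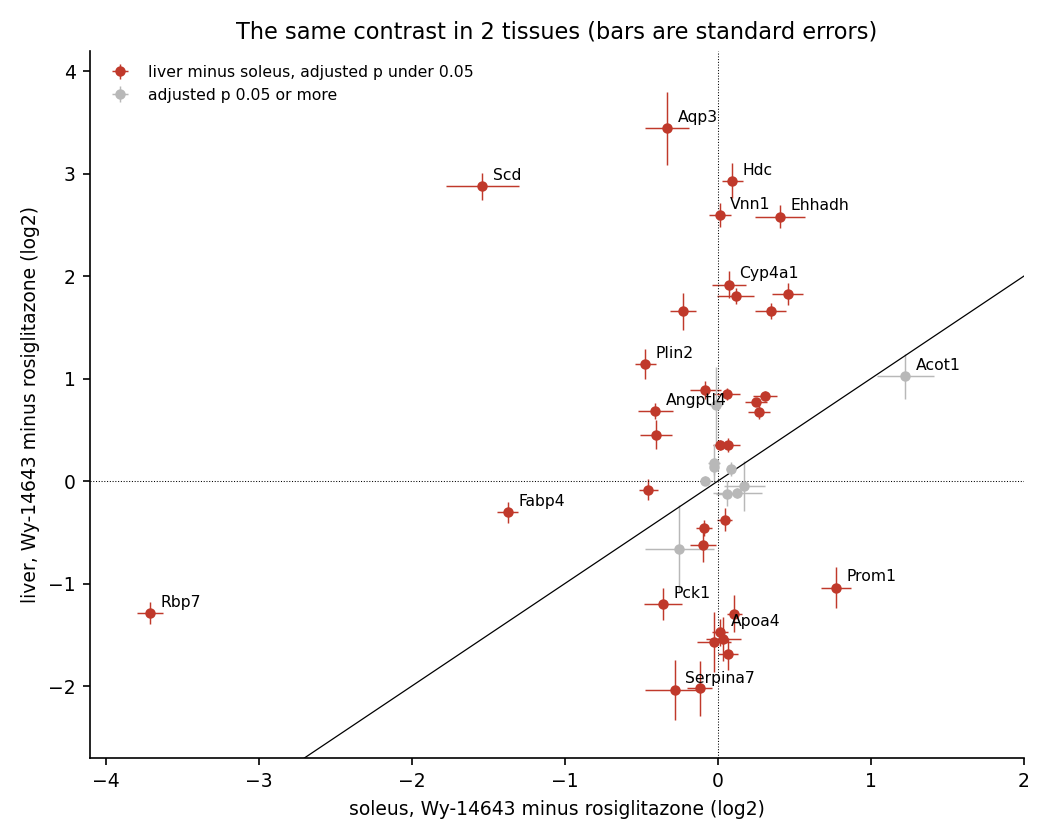
Wy-14643 minus rosiglitazone (log2, linear axes) in liver on the vertical axis and in soleus on the horizontal axis, with standard errors, for the genes named in the tissue comparison; the line marks equal differences. Red points, which passed the test of liver minus soleus, include Scd with opposite signs in the tissues and Rbp7 with -3.71 in soleus.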

How the data were processed

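The deposited table holds the authors' log10 ratios for 23653 probes on 484 arrays; their normalisation, scale and direction are not stated in the labels and not given in the sources used here. The log10 scale was inferred from values that centre on 0 and stop at -2 and 2. Per the labels, the pool is named first and the rat second, and the channels are Cy3 and Cy5; the ratio was taken as rat over pool, and with this direction Cyp4a1 is positive in every Wy-14643 liver. No dye swap is labelled. The lowest correlation between a Wy-14643 and a rosiglitazone liver was -0.13 (median 0.15). Between rosiglitazone livers the lowest was also -0.13, and between Wy-14643 livers 0.26. Correlations this low could not show whether a rosiglitazone array was reversed. Values were multiplied by 3.32 to give log2. Intensities were not used here.

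Gene names came from the platform annotation, updated by identifier through RefSeq; 15260 probes had 1 gene, 17 several and 8376 none. Probes of a gene were averaged (10210 genes, 3260 with several probes), and features with values on at least 80% of arrays and in every compound and day were tested. With limma 3.58.1 (R 4.3.3), each compound-day group got its own mean, and Wy-14643 minus rosiglitazone was averaged with equal weight per day; slope per day and liver minus soleus were contrasts of the same kind. P values are from limma's moderated test, two-sided, adjusted by Benjamini-Hochberg over all features of a comparison at 0.05. There was 1 pair of compounds. The remaining steps used Python 3.11.15, pandas 2.3.3, numpy 2.4.6 and matplotlib 3.10.9.

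Members and lists were chosen with earlier results of these data known. Named genes are the 12 largest rises and 12 largest falls that passed with one sign on all 5 days (symbols that only number a locus were skipped), up to 4 passing members with the smallest adjusted p of each of 31 lists, and a fixed set of PPAR and lipid genes; for slope and tissue, the 6 largest each way and members of the fixed set that passed. Other genes named in the text belong to a list or were chosen after their values were seen. Leaving out rats 1373 and 1380, or values at the limit, was added after the data were seen. Liver and soleus shared 28 rats, whose deviations from the compound and day means correlated at a median of 0.137 (27 of 28 above 0), against -0.068 between different rats, so the rat was used as a block in an alternative. In simulated data with 200 changed genes the liver comparison recovered 98% of changes of 1 log2 unit, with 14 false calls among 18371 features. The simulated noise was independent, with the same spread for a gene on every array. The measured arrays differed in spread, so these rates need not hold for them.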

Additional observations from a re-analysis of the deposited data

Results flagged for a closer look

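Many genes had a difference between the compounds that was not the same in liver and soleus, by a test of the difference itself. Ppp1r1a, Cpt1b, Fabp3, Hspb1 and Clic5 had too few soleus values and were not ranked. Among the genes tested, liver minus soleus was, in log2 units of Wy-14643 minus rosiglitazone, most positive for Scd (4.42), Aqp3 (3.77), Hdc (2.84), Vnn1 (2.58), Rbp7 (2.42) and Ehhadh (2.17). It was most negative for Hsd11b1 (-1.91), Prom1 (-1.81), Tubgcp5 (-1.75), Serpina7 (-1.75), Inhba (-1.58) and Popdc2 (-1.55). Of the genes with a PPAR or lipid role, it was positive for Cyp4a1 (1.84), Acaa1b (1.32), Pex11a (1.69), Cpt2 (0.52), Hadha (0.52), Pdk4 (1.37), Angptl4 (1.09), Me1 (1.89), Ucp2 (0.34), Ucp3 (0.41), Cd36 (0.86), Fabp4 (1.07), Plin2 (1.62), Cidea (0.97), Aqp7 (0.29), Srebf1 (0.79) and Pparg (0.37). It was negative for Fabp2 (-1.40), Lpl (-0.53), Apoa1 (-0.42), Apoa4 (-1.49), Apoc3 (-0.37) and Pck1 (-0.84). With the rat as a block, Aqp7, Pparg, Lpl and Apoa1 did not pass (adjusted p = 0.054, 0.21, 0.19 and 0.12). A positive value can come from a rise in liver or from a larger fall in soleus, as for Rbp7. Whether transcripts with a small soleus difference were high enough to measure in soleus was not tested.

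A change of the compounds' difference with day stood out for Scd2 (0.61 per day), Hhatl (0.29) and Pdia3 (-0.30). The array of rat 1376, labelled as rosiglitazone liver and used only in the counts that keep it, had a median of 1.38 for skeletal muscle markers, 2.18 for fibroblast and stellate cell markers, 2.01 for adipocyte markers and -3.73 for hepatocyte markers.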

How the results depend on the processing

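The number of the 5535 calls in liver moved by over 1.5 times with rat 1376 kept, to 3185, and on requiring at least 1 log2 unit, to 165. Subtracting array medians, scaling the arrays to one spread, quality weights, complete values only, no filter on missing values, the additive model, leaving out a day and leaving out values at the limit stayed within 1.5 times, and leaving out 1 array gave 5067 to 6683. Testing each probe alone called 7076 of 23236 probes, and 51 of 3189 genes with several probes had probes called in both directions. The 3 slopes were 1 with rat 1376 kept, 20 after scaling, 340 with quality weights, 64 without rats 1373 and 1380, and 3 to 27 when 1 array was left out; the cause was not tested. The 3423 calls of liver minus soleus became 2831 with the rat number as a replicate block and stayed within 1.5 times under the other settings. No paired analysis was possible within liver because the compounds were given to different rats. With rat 1376 kept, 34 named genes lost their call with the same sign, among them Cd36, Fabp4, Apoa1, Apoc3, Aqp7, Ass1 and Slc10a1. Hpd (0.06), Mb (-0.11) and Pgam2 (-0.03) lost theirs and turned sign. Without day 2, 10 named genes lost their call with the same sign. The number was 11 without day 3, 5 without day 4, 5 without day 5 and 12 without day 6. Of the days, leaving out day 6 gave the lowest count of calls in liver, 3831. Per1, which did not pass, turned with scaling (0.01), without day 2 (0.13) and without day 3 (0.04), and spanned -0.15 to 0.08 when 1 array was left out. Rxra, which did not pass either, turned with quality weights (-0.03), without rats 1373 and 1380 (-0.03), without day 5 (-0.01) and without day 6 (-0.04), and spanned -0.03 to 0.03. The number of arrays limits the precision: in simulated data 42% of changes of 0.25 log2 units were recovered, and 84% of changes of 0.5. The simulation changed 200 genes, against 5535 calls here, and gave every array the same spread for a gene. Its rates need not be those of the measured comparison. The p-values measure the spread between rats, and dye bias common to both compounds cancels in the difference.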

Other observations

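Further genes that differed by 1 log2 unit or more were looked through after their values were seen; Crot, Gpat3, Elovl6, Ephx2, Cyp3a9 and Aass are also members of the lists counted above. Among enzymes of lipid and CoA metabolism, with differences and SE in log2 units, Wy-14643 was higher for Crot (1.44 ± 0.12, adjusted p = 6.7e-09), which prepares chains leaving the peroxisome, Crat (1.06 ± 0.05, adjusted p = 2.6e-12), the carnitine acetyltransferase, Gpat3 (1.77 ± 0.34, adjusted p = 0.00047), which starts glycerolipid synthesis, Elovl6 (1.38 ± 0.17, adjusted p = 2e-06), a fatty acid elongase, and Ephx2 (1.29 ± 0.31, adjusted p = 0.0028), the soluble epoxide hydrolase. Crot averaged 2.55 with Wy-14643 and 1.11 with rosiglitazone, so both lay above the pool. The shuttle enzyme Gpd2 (1.47 ± 0.12, adjusted p = 4.5e-09) of mitochondria and the transcription factor Myc (1.11 ± 0.12, adjusted p = 3e-07) were also higher, and Cyp17a1 (1.53 ± 0.20, adjusted p = 3.9e-06), an enzyme of androgen synthesis, averaged 0.86 with Wy-14643 and -0.67 with rosiglitazone.

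In the other direction, Wy-14643 was lower for Il1r1 (-1.11 ± 0.14, adjusted p = 4.3e-06), the interleukin-1 receptor, Cxcl1 (-1.02 ± 0.18, adjusted p = 0.00018), a neutrophil chemokine, Cyp3a9 (-1.13 ± 0.29, adjusted p = 0.0044), a steroid and drug hydroxylase, Slc6a6 (-1.23 ± 0.30, adjusted p = 0.0033), the taurine transporter, and Aass (-1.02 ± 0.20, adjusted p = 0.00051), the first enzyme of lysine breakdown. For Aass and Slc6a6 the compounds lay on opposite sides of the pool: Aass averaged -0.41 with Wy-14643 and 0.62 with rosiglitazone, and Slc6a6 averaged -0.85 with Wy-14643 and 0.38 with rosiglitazone.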
